A study of Homo sapiens with 24 samples.

Results

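OTX treatment of the human line U937 in medium without folic acid (-FA) is described here from 6 libraries of the 24 in the series. The 3 U937 -FA OTX libraries were set against the 3 U937 -FA DMSO libraries, the vehicle. Values are FPKM, which count sequenced fragments relative to transcript length and library size. A gene was tested when either group averaged 1 FPKM or more, which left 11043 of 23595 genes. For comparison, 3 OTX and 3 DMSO libraries each were taken from U937 with folic acid (+FA) and from the line IMS-M2 without it. The labels put both lines down as acute myeloid leukaemia (AML) and name the agent only by its abbreviation. From what is known of the study, OTX is OTX015 (birabresib), which blocks the bromodomains of the BET proteins. The labels used here give no dose, no length of treatment and no length of folic acid withdrawal. Nothing in them says whether replicate libraries were separate cultures, so p-values measure only the spread between these samples. In the U937 -FA table the libraries carry the numbers 0, 1 and 2, and they are called columns 0, 1 and 2 below.

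BET proteins, among them BRD2 and BRD3, bind acetylated histones and bring the elongation kinase P-TEFb to promoters and enhancers. In leukaemia cells they are known for keeping MYC transcribed, and MYC in turn drives ribosome production, nucleotide synthesis and cell growth. Folic acid is the precursor of the tetrahydrofolates, which carry the carbon units used for purines, thymidylate, glycine and methionine. U937 is a monocytic line that carries a CALM-AF10 fusion, and fusions of that kind are known for high HOXA gene expression. IMS-M2 is an AML line.

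The 6 libraries summed to between 545538 and 644841 FPKM and held between 10636 and 10762 genes at 1 FPKM or more. DMSO column 2 had the highest sum and lay farthest from its group. Its mean correlation of log2(FPKM + 1) with the other DMSO libraries was 0.974, those of DMSO columns 0 and 1 were 0.984 and 0.978, and the OTX libraries had 0.989 to 0.991. Values without DMSO column 2 are given beside results that depended on it. Of 16 markers of U937 and myeloid cells, 11 were at 5 FPKM or more in all 6 libraries, among them CD33, CD4, LYZ, SPI1, CEBPA, ELANE and CTSG. MPO and CSF1R stayed under 5 FPKM in all 6 libraries and CSF2RA was listed at 0. None of 12 T lymphocyte markers reached the filter, with sums of 0.154 to 0.216 FPKM with OTX and 0.164 to 0.637 FPKM with DMSO. The 10 B lymphocyte markers summed to 4.02 to 4.87 FPKM with OTX and 6.50 to 7.64 FPKM with DMSO, and 2 of the 10 were at 0 throughout. The 16 erythroid and megakaryocyte markers summed to 5.29 to 6.53 FPKM with OTX and 9.49 to 10.9 FPKM with DMSO, with 8 at 0 throughout. Of 15 stromal, endothelial and epithelial markers, 6 were at 0 throughout. Their sums of 542 to 575 FPKM with OTX and 305 to 319 FPKM with DMSO were mostly VIM, which leukocytes also express.

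OTX changed 6092 of the genes tested, 55.2%, at an adjusted p below 0.05 (limma on log2(FPKM + 1), Benjamini-Hochberg over all genes tested). Of these, 2833 (25.7%) were higher and 3259 (29.5%) lower with OTX. Counts in the gene lists below are to be read beside these shares. Of the called genes, 1065 (9.64% of those tested) also changed by 1 or more on the log2 scale, 374 up (3.39%) and 691 down (6.26%). With a pseudocount of 0.1 FPKM in place of 1, that count came to 1602, 638 higher and 964 lower. Without DMSO column 2 it was 965, 301 higher and 664 lower. The 3 OTX values lay clear of the 3 DMSO values in 64.2% of genes tested, above them in 30.5% and below them in 33.8%. The median log2 change of all genes tested was -0.02. Each FPKM is a share of its library, and a global loss or gain of RNA is not visible in it. In RNA from whole cultures, fewer cells of a type and less RNA per cell cannot be told apart. Of the 231 named genes that were tested in U937, 46 share a locus in the deposited tables with another gene, and how reads were divided there is not given in the sources used here.

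The genes with the largest changes included regulators of growth, myeloid genes and a ferritin gene. CDKN1A encodes the cyclin-dependent kinase inhibitor p21. It had the highest change among called genes averaging 5 FPKM or more whose groups did not overlap, symbols of small RNAs left out. It had 56.3, 68.7 and 54.4 FPKM with OTX, against 4.28, 4.27 and 3.36 FPKM with DMSO, a log2 change of 3.61 (SE 0.12, adjusted p = 1.16e-05, limma). Genes were ranked only where the groups did not overlap, so that trait of the ranked genes was fixed by the choice. The lowest change was that of MS4A3, a membrane protein of myeloid progenitors, with 3.29, 2.998 and 3.08 FPKM with OTX, against 54.97, 56.3 and 53.3 FPKM with DMSO. Its log2 change was -3.76 (SE 0.08, adjusted p = 1.62e-06, limma), and the groups lay far apart. MYC, the growth-promoting transcription factor, had 23.2, 18.5 and 18.9 FPKM with OTX, against 182, 184 and 166 FPKM with DMSO. Its log2 change was -3.08 (SE 0.11, adjusted p = 1.35e-05, limma). NEAT1, the long noncoding RNA that scaffolds paraspeckles, had 291, 299.5 and 290.2 FPKM with OTX, against 46.2, 42.1 and 45.7 FPKM with DMSO. The 3 OTX values of NEAT1 were close together and well above all 3 DMSO values, at a log2 change of 2.69.

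**Figure D1:**
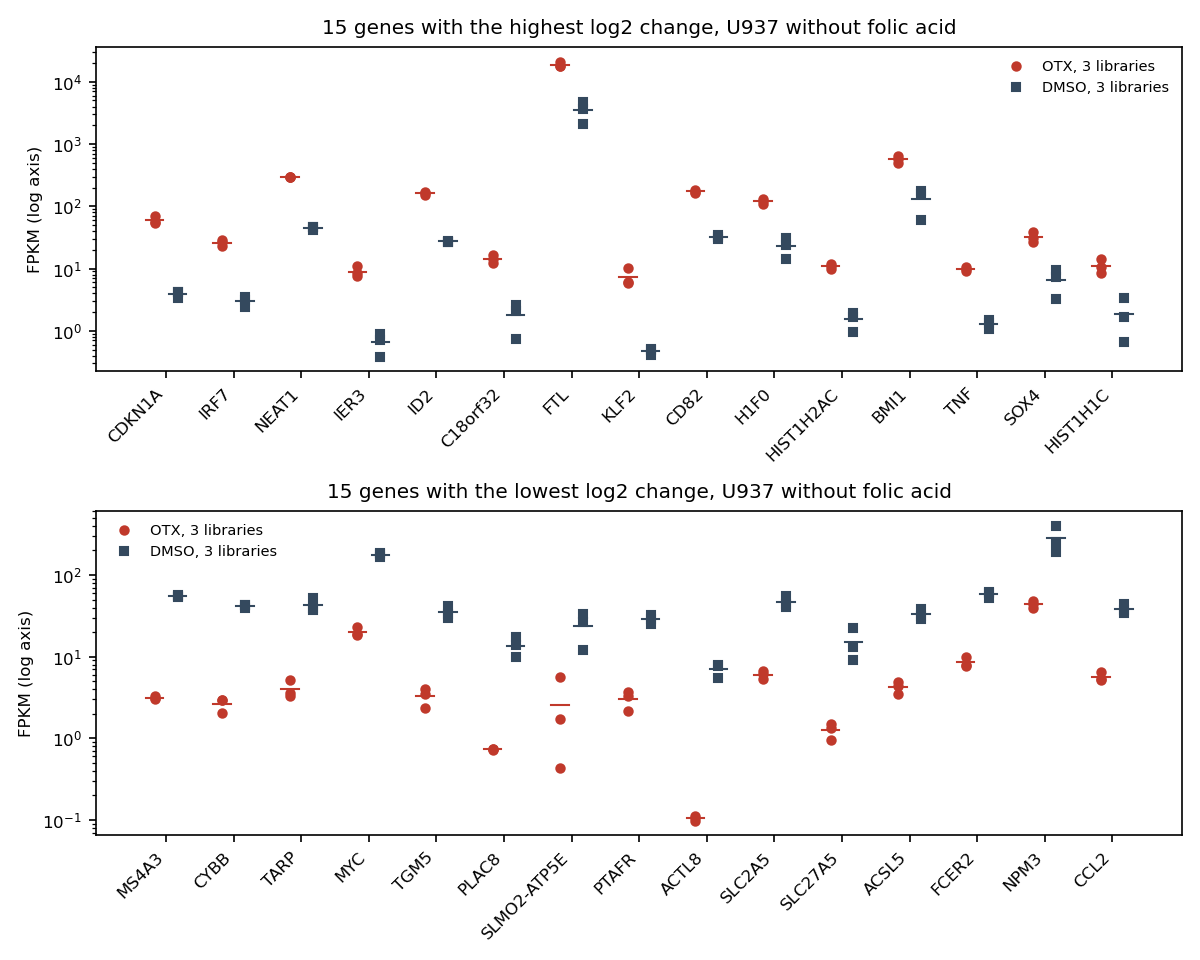
FPKM in each library (log axis) of the 15 genes with the highest and the 15 with the lowest log2 change among called genes averaging 5 FPKM or more in either group, without overlap and without small RNA symbols. OTX libraries are circles, DMSO libraries squares and short lines group means. Groups that do not overlap were a condition of the choice. MYC lies between 18.5 and 23.2 FPKM with OTX and between 166 and 184 FPKM with DMSO.

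Among the other genes with the highest changes, IRF7, a transcription factor of the interferon response, had 26.3, 28.3 and 22.9 FPKM with OTX, against 3.16, 3.51 and 2.4002 FPKM with DMSO. ID2, which blocks E-protein transcription factors, had 152, 172 and 161 FPKM with OTX, against 27.03, 26.7 and 28.02 FPKM with DMSO. Both moved with little spread, at log2 changes of 2.74 and 2.52. The transcription factor KLF2 had 6.14, 10.3 and 5.78 FPKM with OTX, against 0.403, 0.494 and 0.505 FPKM with DMSO, and TNF, the inflammatory cytokine, had 9.99, 10.5 and 8.99 FPKM with OTX, against 1.47, 1.34 and 1.08 FPKM with DMSO. Their log2 changes were 2.48 and 2.24. IER3, CD82, H1F0, HIST1H2AC, SOX4 and HIST1H1C rose by 2.14 to 2.58 on the log2 scale. BMI1 (log2 change 2.25) and C18orf32 (2.51) also belong to the 15 highest. Each shares its locus with other genes. DMSO column 2 held the lowest value of both, and also of most other genes among the 15 highest, such as FTL, H1F0 and SOX4, but not of NEAT1, ID2 or KLF2.

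Among the genes with the lowest changes, CYBB, the catalytic subunit of the phagocyte NADPH oxidase, had 2.93, 2.04 and 2.93 FPKM with OTX, against 39.2, 42.4 and 43.1 FPKM with DMSO. FCER2, the low-affinity IgE receptor CD23, had 10.02, 7.88 and 7.78 FPKM with OTX, against 60.4, 62.4 and 51.8 FPKM with DMSO, and PTAFR, the receptor for platelet-activating factor, had 3.65, 2.14 and 3.31 FPKM with OTX, against 29.2, 25.1 and 32.8 FPKM with DMSO. Their log2 changes were -3.56, -2.63 and -2.91. SLC2A5, a fructose transporter, had 6.64, 5.36 and 6.08 FPKM with OTX, against 43.7, 40.2 and 54.8 FPKM with DMSO. ACSL5, which activates long-chain fatty acids, had 4.34, 3.54 and 4.83 FPKM with OTX, against 31.8, 29.2 and 38.003 FPKM with DMSO. Both fell, by log2 changes of -2.74 and -2.698. TARP, TGM5, PLAC8, ACTL8, SLC27A5, NPM3 and CCL2 had log2 changes between -3.13 and -2.59. SLMO2-ATP5E, a readthrough transcript that shares its locus with 2 other genes, spread widely, with 5.58, 0.437 and 1.703 FPKM with OTX, against 26.6, 11.99 and 33.4 FPKM with DMSO.

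In a list put together as genes that published work on BET inhibitor responses reported as raised, 8 of 9 tested members rose and 1 fell. The median log2 change was 1.71, and rises were the direction the list was chosen for. TXNIP, which restrains glucose uptake, had 83.4, 95.5 and 85.97 FPKM with OTX, against 18.8, 18.1 and 22.2 FPKM with DMSO. HEXIM1, the inhibitor of P-TEFb, had 38.4, 46.4 and 35.7 FPKM with OTX, against 9.86, 11.5 and 6.57 FPKM with DMSO, and SERPINI1, the serpin neuroserpin, had 4.81, 7.47 and 5.84 FPKM with OTX, against 0.783, 1.04 and 0.443 FPKM with DMSO. Their log2 changes were 2.11, 2.02 and 2.001 (adjusted p = 2.36e-05, 0.000173 and 0.000127, limma). In each gene all OTX libraries lay above all DMSO libraries. The chemokine receptor CCR2 is the member that fell, against the direction of the list. It lay at 0.0127 to 0.0612 FPKM with OTX and 0.945 to 1.25 FPKM with DMSO. Such a list was drawn from published work and is no test of what the agent is.

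In the list of BET proteins and elongation factors, 9 of 27 tested members rose and 2 fell. BRD2 had 67.3, 67.5 and 70.2 FPKM with OTX, against 51.5, 46.5 and 53.2 FPKM with DMSO, a log2 change of 0.44 (adjusted p = 0.00479, limma). BRD3 had a log2 change of 0.17 and did not pass the test (adjusted p = 0.288, limma). AFF1 and AFF4, scaffolds of the super elongation complex, had log2 changes of 0.78 and 0.90, and ELL2, an elongation factor of the complex, of 0.48. NELFA, a subunit of the pausing factor NELF, fell with a log2 change of -0.75.

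MYC was the member with the lowest change in the MYC and MAX network list. There 4 of 12 tested members rose and 3 fell, while over all genes tested 25.7% rose and 29.5% fell. That list also counts TXNIP, described above, as its highest member at a log2 change of 2.11. The repressors MXD1 and MXD4, which compete with MYC for MAX, had log2 changes of 0.88 and 1.04. MXD1 had 8.31, 10.4 and 10.5 FPKM with OTX, against 4.94, 4.67 and 4.801 FPKM with DMSO. MNT and MXI1, repressors of the same kind, fell with log2 changes of -0.78 and -0.61. MAX, the shared partner, had 37.1, 36.8 and 34.97 FPKM with OTX, against 35.5, 39.1 and 30.7 FPKM with DMSO, and the groups overlapped (adjusted p = 0.697, limma).

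Transcripts for ribosome production fell almost throughout. Of 45 ribosome biogenesis and nucleolar factors, 42 fell and none rose, with a median log2 change of -1.03, and the lowest was IPO4, an importin that carries ribosomal proteins, at -2.11. IPO4 had 8.83, 6.75 and 7.67 FPKM with OTX, against 36.4, 35.99 and 37.3 FPKM with DMSO. WDR74, which takes part in large subunit maturation, had 10.8, 10.2 and 10.5 FPKM with OTX, against 42.9, 40.1 and 40.7 FPKM with DMSO. RRS1, a large subunit assembly factor, had 14.3, 12.6 and 12.7 FPKM with OTX, against 48.9, 47.6 and 51.4 FPKM with DMSO. All 3 genes separated the groups with small spread, with log2 changes of -2.11, -1.88 and -1.83. FBL, the methyltransferase fibrillarin that modifies ribosomal RNA, had 156, 119 and 145 FPKM with OTX, against 554, 412 and 819 FPKM with DMSO. Its DMSO values spread widely, and its log2 change was -2.03 (SE 0.24, adjusted p = 0.000439, limma). MRTO4, a factor of ribosomal stalk assembly, had 19.3, 16.5 and 16.6 FPKM with OTX, against 63.7, 62.1 and 55.03 FPKM with DMSO. PES1, a subunit of the PeBoW complex in large subunit processing, had 25.4, 20.9 and 22.3 FPKM with OTX, against 66.03, 58.97 and 61.1 FPKM with DMSO. NPM1, the abundant nucleolar chaperone, changed less, with 516, 549 and 539 FPKM with OTX, against 719, 727 and 734 FPKM with DMSO and a log2 change of -0.44.

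MYC with MAX is known to bind the E-box CACGTG, so promoters of these genes were searched for it. The sequence reads the same on both strands. Promoter windows of 300 bases (250 before to 50 after a RefSeq gene start, build GRCh38.p14) were searched for 37 of the 45 factors. Windows on the chromosome that carries RRS1 were left out before all counts given here. RRS1 is therefore not among the 37. Of the 46 windows of the 37 factors, 18 held CACGTG, 39.1%. That compares with 7.26% of all 35116 windows searched and 9.70% of the 12828 searched windows of genes tested. Called genes that fell by 1 or more on the log2 scale held it in 16.1% of 776 windows, and those that rose as much in 6.25% of 432 windows. These shares are descriptions and were not tested. Windows of 63 cytosolic ribosomal protein genes held it in 5.13%, fewer than windows of all genes tested, and windows of 35 lysosome and autophagy genes in 20.5%. Sequences are printed 5′ to 3′ on the strand of the gene, with the E-box in capitals. Shown are windows of the 4 ribosome biogenesis factors with the lowest changes among the factors searched that hold the E-box. They are IPO4 (chr14:24188767-24189066, minus strand), FBL (chr19:39846330-39846629, minus strand), MRTO4 (chr1:19251555-19251854, plus strand) and PES1 (chr22:30591861-30592160, minus strand).
IPO4: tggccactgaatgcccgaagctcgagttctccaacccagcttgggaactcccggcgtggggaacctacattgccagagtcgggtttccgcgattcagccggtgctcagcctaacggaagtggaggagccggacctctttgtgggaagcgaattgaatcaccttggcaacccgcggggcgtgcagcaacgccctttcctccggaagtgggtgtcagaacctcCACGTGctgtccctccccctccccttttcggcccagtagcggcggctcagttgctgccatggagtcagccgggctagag
FBL: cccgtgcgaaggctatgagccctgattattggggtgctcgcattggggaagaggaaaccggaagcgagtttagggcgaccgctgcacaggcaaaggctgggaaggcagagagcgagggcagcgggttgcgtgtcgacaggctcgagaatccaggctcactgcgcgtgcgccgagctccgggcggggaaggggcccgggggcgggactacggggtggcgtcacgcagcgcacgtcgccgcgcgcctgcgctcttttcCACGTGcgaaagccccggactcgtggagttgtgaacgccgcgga
MRTO4: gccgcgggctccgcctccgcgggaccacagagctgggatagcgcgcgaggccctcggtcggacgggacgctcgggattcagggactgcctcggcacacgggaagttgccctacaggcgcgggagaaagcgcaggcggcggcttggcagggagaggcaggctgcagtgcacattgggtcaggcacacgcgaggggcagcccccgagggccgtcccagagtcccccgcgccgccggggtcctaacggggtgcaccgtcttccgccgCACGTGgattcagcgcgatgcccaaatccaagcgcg
PES1: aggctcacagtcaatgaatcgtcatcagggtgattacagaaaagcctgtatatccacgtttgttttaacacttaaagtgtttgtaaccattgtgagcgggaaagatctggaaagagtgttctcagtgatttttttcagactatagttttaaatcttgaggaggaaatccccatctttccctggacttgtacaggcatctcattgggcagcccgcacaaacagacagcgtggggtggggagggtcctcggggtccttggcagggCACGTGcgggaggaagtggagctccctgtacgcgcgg
The E-box begins 29 bases before the annotated start of IPO4, and at base 7 of FBL, base 14 of PES1 and base 15 of MRTO4, counted from 1 at the start. A match in these letters does not show that a factor binds there.

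RNA polymerases I and III make ribosomal and transfer RNA, and 15 of 24 of their subunits and factors fell and 3 rose. The polymerase I subunits POLR1B, POLR1C and POLR1E had log2 changes of -1.38, -1.25 and -1.47. POLR1B had 8.47, 8.12 and 9.11 FPKM with OTX, against 23.3, 22.96 and 25.5 FPKM with DMSO. POLR3G, a polymerase III subunit, fell (log2 change -1.13) while its paralogue POLR3GL rose (0.76). POLR3GL had 29.3, 31.5 and 29.4 FPKM with OTX, against 16.7, 17.4 and 18.1 FPKM with DMSO, with no overlap. The list's median of -0.68 became -0.49 without DMSO column 2.

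Of 78 cytosolic ribosomal proteins tested, 58 fell and 2 rose, with a median log2 change of -0.65. RPS10 had 1401, 1406 and 1411 FPKM with OTX, against 2401, 2405 and 2355 FPKM with DMSO, and RPL5 had 615, 615 and 653 FPKM with OTX, against 1102, 1054 and 1245 FPKM with DMSO. Both separated the groups, at log2 changes of -0.76 and -0.85. RPS20 and RPS27 rose, with log2 changes of 0.47 and 0.47. Those calls were lost with OTX column 1 left out (adjusted p = 0.0762 for RPS20 and 0.0906 for RPS27, limma). They were also lost without DMSO column 0 (adjusted p = 0.0571 and 0.0828, limma), RPS20 also without OTX column 2 and RPS27 without OTX column 0. Many of these genes have processed pseudogenes or share loci with small RNAs, and how the authors' tool split such reads is not given in the sources used here. RPL21 spread most widely, with 783, 42.3 and 25.1 FPKM with OTX, against 12.3, 93.6 and 0.0223 FPKM with DMSO and an adjusted p of 0.169, which was 0.0302 without DMSO column 1 (limma). Host genes of small nucleolar RNAs fell likewise, 12 of 17 tested with none higher. Their median of -0.93 became -0.72 without DMSO column 2. SNHG16 had 14.2, 15.001 and 15.4 FPKM with OTX, against 39.6, 33.8 and 40.1 FPKM with DMSO. GAS5, which overlaps 11 other genes in the table, ranged most widely, at 87.4 to 105 FPKM with OTX and 180.4 to 635 FPKM with DMSO.

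Protein synthesis genes moved with them. Of 41 translation initiation and elongation factors, 27 fell and 3 rose. EIF5A, the hypusinated elongation factor, had 380.5, 344 and 342 FPKM with OTX, against 814, 728 and 947 FPKM with DMSO, a log2 change of -1.21. The 4E-binding proteins, which hold back cap-dependent initiation, split: EIF4EBP1 had a log2 change of -1.12 and EIF4EBP2 of 0.56. EIF4EBP2 had 48.1, 54.3 and 57.5 FPKM with OTX, against 35.6, 35.4 and 35.8 FPKM with DMSO, and EIF4EBP1 had 121, 119 and 97.8 FPKM with OTX, against 250.4, 271 and 214 FPKM with DMSO. Neither gene overlapped between groups. Of 20 cytosolic aminoacyl tRNA synthetases, 16 fell and none rose, with a median of -0.82. LARS, VARS and IARS, for leucine, valine and isoleucine, had the lowest log2 changes, -1.61, -1.56 and -1.52. LARS had 19.5, 18.3 and 22.4 FPKM with OTX, against 61.2, 56.2 and 72.6 FPKM with DMSO.

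Of 15 amino acid transporters, 9 fell, 1 rose and 5 did not pass the test. SLC7A5, the large neutral amino acid transporter LAT1, had 36.4, 31.3 and 32.98 FPKM with OTX, against 121, 117 and 116 FPKM with DMSO, a log2 change of -1.79. SLC7A1, the cationic amino acid transporter, had 7.24, 6.02 and 7.39 FPKM with OTX, against 21.97, 21.9 and 21.2 FPKM with DMSO. SLC38A2, the glutamine and alanine transporter SNAT2, was the member that rose, with a log2 change of 0.63. ATF4, the transcription factor of the amino acid stress response, had 87.7, 86.7 and 85.5 FPKM with OTX, against 193, 199.9 and 174 FPKM with DMSO, a log2 change of -1.11. In its list 3 of 16 members were higher and 4 lower, no larger shares than over all genes tested (25.7% and 29.5%). TRIB3, a pseudokinase induced by ATF4, had 20.9, 18.3 and 17.9 FPKM with OTX, against 60.3, 60.8 and 57.2 FPKM with DMSO, while PPP1R15A, which restores initiation after stress, had 33.3, 32.1 and 28.03 FPKM with OTX, against 18.9, 18.2 and 13.6 FPKM with DMSO. Both separated the groups, in opposite directions, at log2 changes of -1.596 and 0.85.

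**Figure D2:**
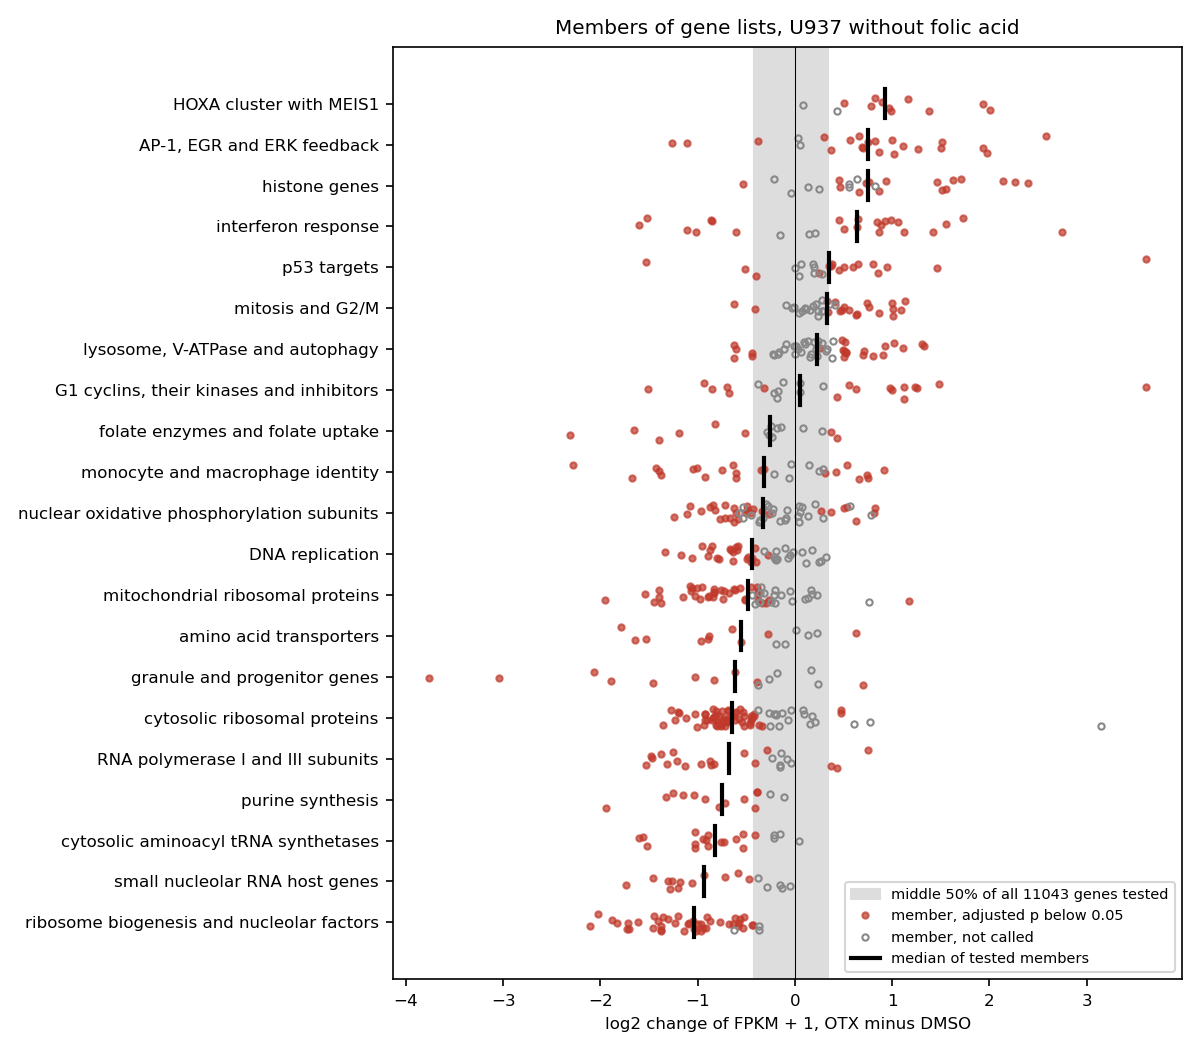
Log2 change of FPKM + 1 (OTX minus DMSO, U937 -FA) of each tested member of 21 gene lists, with a line for each list, ordered by median. Filled points passed an adjusted p of 0.05, open points did not, black bars are medians, and the grey band holds the middle 50% of all genes tested. Among these lists the HOXA list has the highest median (0.93) and the ribosome biogenesis list the lowest (-1.03).

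Of 26 genes for folate enzymes and folate uptake, 16 passed the filter, and 6 of these fell and 2 rose. MTHFD1L, the mitochondrial formate-producing enzyme, changed most, with 7.55, 7.37 and 8.47 FPKM with OTX, against 45.1, 38.5 and 45.04 FPKM with DMSO. Its log2 change was -2.32 (SE 0.10, adjusted p = 1.90e-05, limma). MTHFD1, its cytosolic trifunctional counterpart, had 35.5, 32.4 and 36.1 FPKM with OTX, against 82.3, 75.6 and 82.7 FPKM with DMSO. SLC19A1, the reduced folate carrier, had 27.6, 22.5 and 22.6 FPKM with OTX, against 71.5, 73.5 and 53.4 FPKM with DMSO. All 3 genes lay lower in every OTX library than in any DMSO library, with log2 changes of -1.19 for MTHFD1 and -1.402 for SLC19A1. GCSH, the lipoyl carrier of the glycine cleavage system, had 7.76, 8.89 and 10.1 FPKM with OTX, against 27.6, 25.3 and 38.8 FPKM with DMSO, a log2 change of -1.65. SHMT2, the mitochondrial serine hydroxymethyltransferase, had 96.9, 91.03 and 94.6 FPKM with OTX, against 176, 159 and 167 FPKM with DMSO, and its cytosolic counterpart SHMT1 had 27.5, 28.3 and 27.4 FPKM with OTX, against 21.1, 21.9 and 18.03 FPKM with DMSO. SHMT2 fell (log2 change -0.82) and SHMT1 rose (0.43). MTHFD2, a mitochondrial folate dehydrogenase, fell with a log2 change of -0.52.

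TYMS, thymidylate synthase, had 103, 113 and 109 FPKM with OTX, against 116, 103 and 157 FPKM with DMSO, and did not pass the test (log2 change -0.19, adjusted p = 0.334, limma). DMSO column 2 lay above the other DMSO libraries, the groups overlapped, and the gene shares a locus with other genes. FPGS, which adds glutamates to folates, had a log2 change of -0.15 and also did not pass, although it did without DMSO column 2 (log2 change -0.28, adjusted p = 0.0332, limma). Of the folate receptors, FOLR1 was listed at 0 in all 6 libraries and FOLR2 stayed under 1 FPKM.

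Of 12 genes of serine synthesis and glutathione, 6 fell and 1 rose. CBS, which starts transsulfuration, had 3.51, 2.82 and 2.15 FPKM with OTX, against 16.7, 12.4 and 16.1 FPKM with DMSO, a log2 change of -2.08. The serine synthesis enzymes PHGDH, PSAT1 and PSPH had log2 changes of -0.70, -1.47 and -0.59. PSAT1 had 20.4, 24.1 and 26.7 FPKM with OTX, against 63.5, 56.6 and 83.7 FPKM with DMSO, and its groups did not overlap. In the methionine cycle 4 of 13 genes fell and 3 rose, AHCY, which clears S-adenosylhomocysteine, having the lowest log2 change, -1.06.

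Purine synthesis fell without exception among called members: 12 of 14 tested, with a median log2 change of -0.75. PFAS, an enzyme of the de novo pathway, had 5.304, 3.998 and 4.65 FPKM with OTX, against 22.5, 21.5 and 18.2 FPKM with DMSO. PAICS, the next bifunctional enzyme, had 42.1, 42.7 and 45.5 FPKM with OTX, against 112, 110.3 and 109 FPKM with DMSO. GART and ATIC, the enzymes that use formyl-tetrahydrofolate, had 34.9, 30.5 and 32.96 FPKM with OTX, against 78.5, 77.1 and 67.04 FPKM with DMSO for GART and 41.3, 40.96 and 46.8 FPKM with OTX, against 102, 88.5 and 124 FPKM with DMSO for ATIC. All 4 fell, with log2 changes of -1.95, -1.33, -1.15 and -1.26. Pyrimidine and ribonucleotide reduction genes split, 10 of 18 lower and 4 higher. CAD, which starts pyrimidine synthesis, had 23.6, 19.4 and 22.2 FPKM with OTX, against 65.7, 55.8 and 71.4 FPKM with DMSO, a log2 change of -1.52. RRM2, the regulated subunit of ribonucleotide reductase, had 366, 456 and 439 FPKM with OTX, against 165, 159 and 174 FPKM with DMSO, a log2 change of 1.33. RRM2B, its stress-related paralogue, had a log2 change of 1.46, and the salvage kinases TK1 and DCK of 0.59 and 0.69. In polyamine metabolism 3 of 9 genes rose and 3 fell. SRM, spermidine synthase, had a log2 change of -1.34 and ODC1, which makes putrescine, of -0.54, while SAT1, which breaks polyamines down, had one of 1.08.

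The lists of cell cycle genes went different ways, and the cell cycle phase of the cells was not measured here. Of 25 G1 cyclins, kinases and inhibitors, 11 rose and 6 fell. CDKN2D and CDKN2B, inhibitors of CDK4 and CDK6, had log2 changes of 1.48 and 1.12, CDKN1B (p27) of 1.26 and CDKN2C (p18) of 0.998. CDKN2D had 59.1, 53.8 and 54.2 FPKM with OTX, against 19.6, 17.3 and 21.3 FPKM with DMSO. The D cyclins split: CCND2 had 2.701, 2.47 and 2.88 FPKM with OTX, against 9.35, 8.2997 and 10.9 FPKM with DMSO, a log2 change of -1.51, and CCND3 had 181, 174 and 168 FPKM with OTX, against 78.6, 76.96 and 83.3 FPKM with DMSO, a log2 change of 1.12. CDK4 and CDK6 fell, with log2 changes of -0.85 and -0.70, and CCNE2 rose, with one of 1.24. RB1, the retinoblastoma protein, had 37.5, 46.6 and 45.4 FPKM with OTX, against 19.97, 24.9 and 19.3 FPKM with DMSO, a log2 change of 0.98.

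Of 39 DNA replication genes, 23 fell and none rose, with a median of -0.44. POLD2, a subunit of DNA polymerase delta, had 75.8, 66.6 and 69.7 FPKM with OTX, against 184, 172 and 184 FPKM with DMSO, a log2 change of -1.34. MCM2 of the replicative helicase had 76.7, 60.7 and 70.9 FPKM with OTX, against 158, 137 and 179 FPKM with DMSO, a log2 change of -1.17. The other helicase subunits MCM3, MCM4, MCM5, MCM6 and MCM7 had log2 changes of -0.86, -0.63, -0.96, -0.46 and -0.59, all past the test. Mitosis genes went the other way, 17 of 36 higher and 2 lower, with a median of 0.33. CDK1, the mitotic kinase, had 74.4, 101 and 87.8 FPKM with OTX, against 42.7, 48.4 and 29.04 FPKM with DMSO, a log2 change of 1.13. CENPE, a kinetochore motor, had 6.94, 7.88 and 8.17 FPKM with OTX, against 3.39, 3.97 and 2.71 FPKM with DMSO, and ANLN, which works in cytokinesis, had 40.4, 44.2 and 47.1 FPKM with OTX, against 25.3, 25.98 and 25.02 FPKM with DMSO. All 3 separated the groups, and DMSO column 2 was the lowest DMSO library in each. PLK1 and BUB3 fell, with log2 changes of -0.41 and -0.63, but each call was lost when DMSO column 0 or any OTX library was left out (adjusted p up to 0.0978 for PLK1 and 0.0923 for BUB3, limma).

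**Figure D3:**
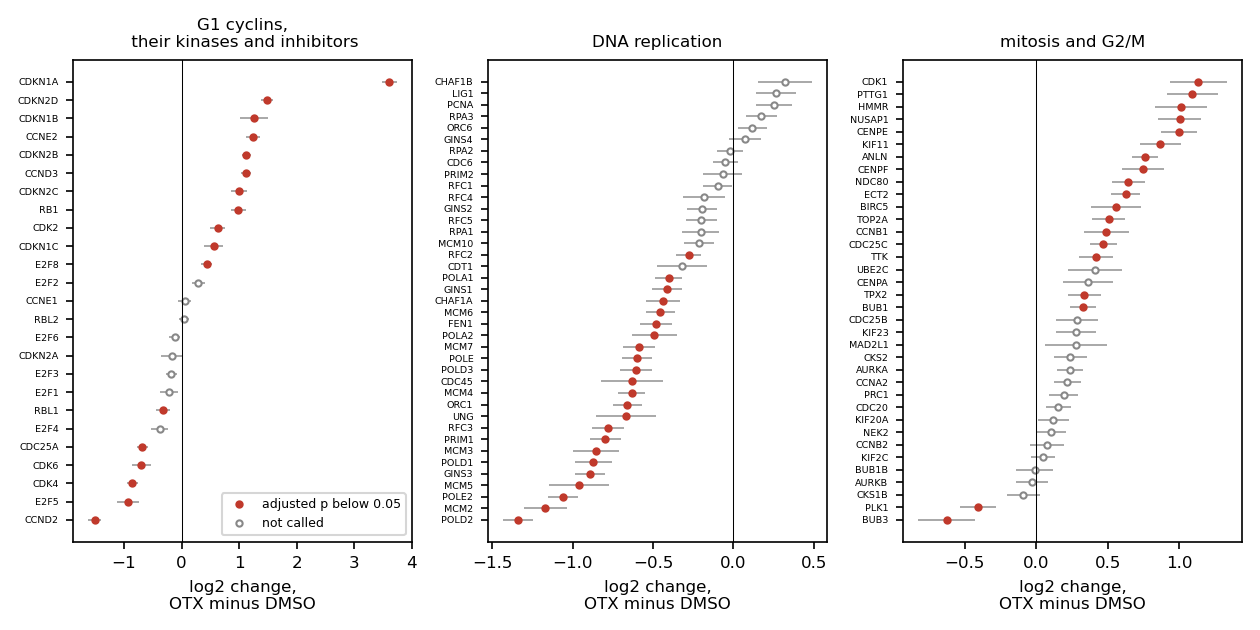
Log2 change (OTX minus DMSO, U937 -FA) of each tested G1, DNA replication and mitosis gene, with bars of 1 SE from limma. Filled points passed an adjusted p of 0.05. CDKN1A stands at 3.61, all called replication genes lie below 0, and all called mitosis genes but PLK1 and BUB3 lie above 0.

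Genes listed as p53 targets were more often higher than lower, 13 and 3 of 23 tested, although U937 is known to lack functional p53. Beside CDKN1A, the growth inhibitors BTG2, ZMAT3 and SESN1 had log2 changes of 0.95, 0.86 and 0.80. MDM2, the p53 ubiquitin ligase and a defining target, had 5.83, 6.36 and 6.67 FPKM with OTX, against 5.52, 5.41 and 5.303 FPKM with DMSO (log2 change 0.18, adjusted p = 0.0907, limma). AEN, an apoptosis nuclease, fell with a log2 change of -1.53. Among 14 BCL2 family genes, 5 rose and 3 fell, and their median of 0.18 became -0.02 without DMSO column 2. MCL1, which protects from apoptosis, had 87.6, 107 and 102 FPKM with OTX, against 40.5, 45.1 and 43.4 FPKM with DMSO, a log2 change of 1.18. The pro-apoptotic BIK and BMF rose, with log2 changes of 1.19 and 0.82, and the protective BCL2A1 and BCL2L1 fell, with -0.59 and -0.51. BCL2 had 6.097, 5.89 and 5.91 FPKM with OTX, against 7.18, 6.79 and 6.74 FPKM with DMSO, and its change did not pass the test (adjusted p = 0.0747, limma).

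Most histone transcripts are known to lack a poly(A) tail, and these libraries were made from polyadenylated RNA. Of 67 listed histone genes 24 passed the filter, and of these 15 rose and 1 fell, with a median of 0.75. H1F0, the linker histone H1.0 of resting cells, had 122, 129 and 109 FPKM with OTX, against 23.9, 30.5 and 14.4 FPKM with DMSO, a log2 change of 2.396. HIST1H2BK had 40.04, 49.2 and 41.5 FPKM with OTX, against 14.2, 13.2 and 10.7 FPKM with DMSO, and HIST1H2BD had 8.94, 9.87 and 8.52 FPKM with OTX, against 2.19, 2.05 and 2.58 FPKM with DMSO. These genes lay higher in every OTX library. H2AFZ, the variant H2A.Z, was the member that fell (log2 change -0.54), a call lost without OTX column 0 or OTX column 1 (adjusted p = 0.0634 and 0.0664, limma).

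In the granule and monocyte lists more members fell than rose, while over all genes tested 29.5% fell and 25.7% rose. Of 15 tested granule and progenitor genes, 9 fell and 1 rose, with a median of -0.62. PRTN3, the granule protease proteinase 3, had 98.1, 86.1 and 78.9 FPKM with OTX, against 413, 509.5 and 236 FPKM with DMSO. CTSG, cathepsin G, had 724, 606 and 608 FPKM with OTX, against 1423, 1433 and 1105 FPKM with DMSO, and SRGN, the granule proteoglycan serglycin, had 511, 486 and 526 FPKM with OTX, against 1857, 1543 and 2342 FPKM with DMSO. All 3 fell, with log2 changes of -2.06, -1.02 and -1.89. ELANE, neutrophil elastase, had 1206, 1086 and 918 FPKM with OTX, against 896, 1172 and 697 FPKM with DMSO, and its groups overlapped (adjusted p = 0.337, limma). MPO, myeloperoxidase, rose at a low level, with 1.01, 1.17 and 1.06 FPKM with OTX, against 0.269, 0.228 and 0.345 FPKM with DMSO.

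Of 27 tested monocyte and macrophage genes, 14 fell and 7 rose. LYZ, lysozyme, had 454, 405 and 479.8 FPKM with OTX, against 1311, 1264 and 1759 FPKM with DMSO, a log2 change of -1.68. CD36, a scavenger receptor, had 17.2, 17.7 and 20.6 FPKM with OTX, against 50.3, 47.2 and 51.6 FPKM with DMSO, and FCGR1A, the high-affinity IgG receptor CD64, had 1.07, 0.668 and 0.985 FPKM with OTX, against 8.64, 7.71 and 8.46 FPKM with DMSO. Both fell, with log2 changes of -1.38 and -2.29, and every OTX library lay below every DMSO library. MARCO and FCN1, which recognise microbes, had log2 changes of -1.43 and -1.396. The integrins ITGAX (CD11c), ITGAM (CD11b) and ITGB2 (CD18) rose, with log2 changes of 0.91, 0.66 and 0.54. ITGB2 had 592, 551 and 549 FPKM with OTX, against 397, 407 and 362 FPKM with DMSO. CD86, a costimulatory ligand, had a log2 change of 0.74. CD14 stayed under 1 FPKM in all 6 libraries.

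Subunits of the phagocyte oxidase went both ways. While CYBB fell, NCF1, its cytosolic organiser p47phox, had 71.3, 67.9 and 67.3 FPKM with OTX, against 22.4, 20.8 and 17.8 FPKM with DMSO, a log2 change of 1.72. CYBA, the partner of CYBB in the membrane, had 509, 528 and 374 FPKM with OTX, against 255, 355 and 134 FPKM with DMSO, with a log2 change of 1.01 (adjusted p = 0.0344, limma). That call was lost without DMSO column 0, OTX column 0 or OTX column 1 (adjusted p = 0.0623, 0.116 and 0.105, limma). RAC2, the small GTPase of the complex, had a log2 change of 0.74. The remaining 3 of the 7 subunits tested did not pass.

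Among 31 tested haematopoietic transcription factors, 9 rose and 8 fell, near the shares of all genes tested (25.7% higher and 29.5% lower). IRF8, a factor of monocyte and dendritic cell fate, had 16.2, 14.4 and 15.5 FPKM with OTX, against 50.1, 54.8 and 40.2 FPKM with DMSO, a log2 change of -1.58. NFE2 and CEBPE, of the megakaryocyte and granulocyte lines, had log2 changes of -1.25 and -1.09. KLF6 rose, with one of 0.93. SPI1 and CEBPA, central myeloid factors, had 140.3, 115 and 115 FPKM with OTX, against 179, 185 and 165 FPKM with DMSO for SPI1 and 207, 205 and 177 FPKM with OTX, against 216, 245 and 151 FPKM with DMSO for CEBPA. SPI1 was lower in every OTX library, at a log2 change of -0.52 (adjusted p = 0.00647, limma), and CEBPA overlapped between groups (adjusted p = 0.901).

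HOXA genes with their cofactors had the highest list median after the BET inhibitor response list, 0.93, with 10 of 12 tested members higher and none lower. HOXA9 had 99.1, 118 and 100.4 FPKM with OTX, against 31.4, 37.3 and 16.5 FPKM with DMSO, and HOXA10 had 142, 176 and 137 FPKM with OTX, against 41.1, 51.6 and 23.3 FPKM with DMSO. Each separated the groups, with the lowest value in DMSO column 2, and they share a locus in the table, so reads could be split between them. MEIS1, the cofactor of HOXA9 in leukaemia, had 56.02, 62.3 and 64.7 FPKM with OTX, against 32.7, 29.9 and 43.3 FPKM with DMSO, a log2 change of 0.79. HOXA7 was the lowest member, at a log2 change of 0.08 (adjusted p = 0.572, limma).

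On the cell surface, 8 of 24 integrins, selectin ligands and tetraspanins rose and 10 fell. Their median of -0.18 became -0.02 without DMSO column 2. The tetraspanin CD82 had 185, 171 and 166 FPKM with OTX, against 34.1, 32.7 and 29.7 FPKM with DMSO, a log2 change of 2.401, and CD69, an activation antigen, had 96.4, 134 and 121 FPKM with OTX, against 26.6, 22.6 and 34.03 FPKM with DMSO, a log2 change of 2.05. SELPLG, the P-selectin ligand, had 21.9, 15.2 and 19.3 FPKM with OTX, against 51.8, 48.6 and 54.2 FPKM with DMSO, a log2 change of -1.42. Among MHC class I and peptide loading genes 6 of 16 rose and 3 fell, and their median of 0.07 became -0.06 without DMSO column 2. HLA-E had 120.2, 115 and 109 FPKM with OTX, against 59.4, 62.7 and 48.5 FPKM with DMSO, a log2 change of 1.01. The subunits of the peptide transporter split, TAP1 with a log2 change of 0.57 and TAP2 with -1.13. Of MHC class II genes only 4 of 13 passed the filter, and CD74, the invariant chain, fell with a log2 change of -0.68.

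Of 25 tested interferon response genes, 15 rose and 7 fell, with a median of 0.64 that became 0.487 without DMSO column 2. IFIT2 and IFIT3, which bind foreign RNA, had 2.86, 3.77 and 3.42 FPKM with OTX, against 0.314, 0.336 and 0.288 FPKM with DMSO for IFIT2 and 6.93, 7.73 and 8.44 FPKM with OTX, against 1.91, 2.06 and 1.87 FPKM with DMSO for IFIT3. STAT2 and IRF9, subunits of the interferon-activated factor ISGF3, had log2 changes of 0.88 and 1.06. PSMB8, a subunit of the immunoproteasome, had 92.3, 83.9 and 90.1 FPKM with OTX, against 193, 190.4 and 195 FPKM with DMSO, and MX2, an antiviral GTPase, had 26.3, 24.9 and 25.8 FPKM with OTX, against 49.3, 48.9 and 43.7 FPKM with DMSO. Both fell, with log2 changes of -1.11 and -0.86, as did IFITM1 (-1.61) and USP18 (-1.02).

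Of 26 NF-kB pathway, cytokine and chemokine genes, 11 fell and 6 rose. IL8, the neutrophil chemokine CXCL8, had 0.789, 0.676 and 0.596 FPKM with OTX, against 6.27, 6.54 and 7.13 FPKM with DMSO, a log2 change of -2.18. CCL2, the monocyte chemokine, had 6.47, 5.13 and 5.299 FPKM with OTX, against 44.4, 37.5 and 34.6 FPKM with DMSO. IL1B, interleukin 1 beta, had 9.602, 10.2 and 10.9 FPKM with OTX, against 2.73, 2.03 and 4.13 FPKM with DMSO, a log2 change of 1.54, while IL1RN, the antagonist of its receptor, had 3.65, 2.29 and 2.43 FPKM with OTX, against 11.5, 10.6 and 12.3 FPKM with DMSO, a log2 change of -1.73. Of these named members, TNF and IL1B rose and IL8 and CCL2 fell. For TNF and CCL2 the lack of overlap was fixed by the ranking. It held for 64.2% of all genes tested, and the 4 genes do not stand for the 26.

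Of 23 tested immediate early and ERK feedback genes, 18 rose and 3 fell, with a median of 0.75. EGR1 had 3.53, 4.34 and 4.11 FPKM with OTX, against 0.268, 0.346 and 0.293 FPKM with DMSO, a log2 change of 1.94, and FOS, a subunit of AP-1, had 17.8, 18.8 and 18.8 FPKM with OTX, against 9.04, 7.58 and 7.43 FPKM with DMSO, a log2 change of 1.11. DUSP6, the phosphatase that inactivates ERK, had 101, 131 and 107 FPKM with OTX, against 28.3, 29.7 and 25.6 FPKM with DMSO, a log2 change of 1.98. FOSL1 and DUSP2 fell, with log2 changes of -1.11 and -1.26.

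Ferritin transcripts rose. FTL, the ferritin light chain, had 17634, 20924 and 17708 FPKM with OTX, against 3654, 4684 and 2072 FPKM with DMSO, a log2 change of 2.51 (SE 0.28, adjusted p = 0.00034, limma). FTL alone made up 3.21 to 3.79% of the FPKM sum with OTX and 0.321 to 0.813% with DMSO. FTH1, the ferritin heavy chain, had 866, 1028 and 959 FPKM with OTX, against 357, 354 and 314 FPKM with DMSO, a log2 change of 1.47. HMOX1 and NQO1, targets of the oxidant sensor NRF2, had 14.99, 15.3 and 12.99 FPKM with OTX, against 4.78, 4.59 and 2.62 FPKM with DMSO for HMOX1 and 28.8, 41.1 and 32.2 FPKM with OTX, against 13.6, 13.2 and 11.97 FPKM with DMSO for NQO1. Their log2 changes were 1.65 and 1.32. In the list of iron and NRF2 genes 7 of 20 rose and 3 fell, SLC11A2, an iron importer, having the lowest log2 change, -1.06.

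Of 47 lysosome, V-ATPase and autophagy genes, 17 rose and 5 fell, with a median of 0.23. MAP1LC3B, the autophagosome protein LC3B, had 39.1, 51.7 and 45.7 FPKM with OTX, against 18.6, 18.6 and 15.9 FPKM with DMSO, a log2 change of 1.31. ATP6V1D, a subunit of the proton pump, had 43.1, 53.1 and 46.03 FPKM with OTX, against 19.8, 20.1 and 15.3 FPKM with DMSO, a log2 change of 1.32. TFEB, a transcription factor of lysosome genes, fell with a log2 change of -0.63. Without DMSO column 2, the called members of this list numbered 32 in place of 22.

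Mitochondrial genes were more often lower than higher. Of 58 mitochondrial ribosomal proteins 37 fell and 1 rose, with a median of -0.48, and MRPL3 had 35.8, 36.9 and 41.2 FPKM with OTX, against 102, 102 and 96.002 FPKM with DMSO. Of 54 nuclear oxidative phosphorylation subunits 22 fell and 7 rose. SDHB of complex II had 94.9, 96.6 and 95.8 FPKM with OTX, against 165, 168 and 177 FPKM with DMSO, a log2 change of -0.82. Mitochondrial chaperones fell, TRAP1 with a log2 change of -1.58, HSPE1 with -1.07 and HSPD1 with -0.83, while the stress-induced cytosolic HSPA1B and DNAJB1 rose, with 1.08 and 0.70. In all, 13 of 29 heat shock genes fell and 6 rose. Of 34 proteasome subunits 15 fell and 1 rose.

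Among 24 glycolytic genes, a list that also counts sugar transporters, 11 fell and 3 rose, with a median of -0.28. The lowest member was SLC2A5, described above, at a log2 change of -2.74. SLC2A3, the glucose transporter GLUT3, was among those that rose. It had 20.3, 24.2 and 21.5 FPKM with OTX, against 9.53, 10.3 and 9.79 FPKM with DMSO, a log2 change of 1.08. Of sterol and fatty acid synthesis genes 12 of 28 were lower and 7 higher, against 29.5% lower and 25.7% higher over all genes tested. FASN, fatty acid synthase, had 72.5, 57.6 and 61.2 FPKM with OTX, against 125, 119 and 119.9 FPKM with DMSO, a log2 change of -0.92. Of 6 tested cholesterol efflux and liver X receptor genes, 4 rose and none fell, with a median of 0.38 that became 0.23 without DMSO column 2. ABCA7, a lipid transporter, had 41.4, 36.7 and 35.1 FPKM with OTX, against 8.69, 8.61 and 7.47 FPKM with DMSO, a log2 change of 2.07.

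To ask whether folic acid altered the response, the OTX change in U937 -FA was set against that in U937 +FA in an interaction test over 12 libraries. The 2 conditions share no library, and each comes from its own table, so levels are compared only within a table. The difference was called for 225 of 11194 genes, 2.01%, with 83 higher (0.741%) and 142 lower (1.27%) in the -FA condition. Of the called genes, 29 (0.259%) differed by 1 or more on the log2 scale. These calls were fragile. With the replicate number as a block limma called 0, while 3584 genes had an unadjusted p below 0.05 with the block and 3791 (33.9%) without it. Same-numbered U937 +FA libraries did not deviate together throughout (correlations of -0.43, 0.35 and -0.18), so the block may not suit that condition. Without DMSO column 2, FADS1 was the gene still called. Such a loss was not particular to that library: 1 gene was called without DMSO column 0, and 2 without OTX column 1. With 1 library left out at a time the count ran from 1 to 2704, and each of the 12 libraries moved it by more than 1.5 times. After rescaling, 242 genes were called, 140 higher and 102 lower, a share of 57.9% higher against 36.9% as deposited.

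Of the 1065 genes called at a size of 1 or more in U937 -FA, 534 (50.1%) were also called at that size in U937 +FA, all in the same direction. These are 59.4% of the 899 genes called there, which are 8.16% of those tested. Of the 1065 genes, 42 (3.94%) were called in the test of the difference. MYC averaged 23.96 ± 1.27 FPKM with OTX and 196 ± 10.1 FPKM with DMSO (SD, n = 3 each) in U937 +FA. Its OTX change there was -2.98, and the difference between conditions was -0.10 (SE 0.13, adjusted p = 0.611, limma). CDKN1A, at a log2 change of 3.33 in +FA, had a difference of 0.28 (SE 0.17, adjusted p = 0.259, limma). NEAT1 was called, with a log2 change of 2.15 in +FA and a difference of 0.54 (adjusted p = 0.0454, limma). That call was lost without DMSO column 2 and without OTX column 1 (adjusted p = 0.0658 and 0.146, limma). FTL averaged 9950.2 ± 3580.1 FPKM with OTX and 4495 ± 840.1 FPKM with DMSO in +FA, and its difference of 1.403 had an SE of 0.42 (adjusted p = 0.0653, limma).

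FADS1, a fatty acid desaturase, had the smallest adjusted p of the difference, 0.0059 (limma). In U937 -FA it had 43.1, 40.6 and 45.5 FPKM with OTX, against 43.7, 42.2 and 45.9 FPKM with DMSO, with overlap and no call (log2 change -0.03). In U937 +FA it averaged 104 ± 1.99 FPKM with OTX and 51.4 ± 2.74 FPKM with DMSO (SD, n = 3 each), a log2 change of 1.0005. The difference of -1.03 (SE 0.10) passed under every alternative tried except the replicate block, where its adjusted p was 0.0718.

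DNA replication genes had different counts in the 2 conditions, 23 of 39 lower and none higher without folic acid, and 8 lower and 6 higher with it, where 27.3% of all genes fell and 29% rose. In the test of the difference itself 6 of 39 were called lower and none higher, against 1.27% lower of all genes. All 6 calls were lost without DMSO column 2, without DMSO column 0, without OTX column 1 and with the replicate block. These were ORC1 (-0.71), MCM2 (-1.005), MCM4 (-0.46), MCM5 (-1.16), POLE (-0.60) and FEN1 (-0.69), as log2 differences. In U937 +FA, MCM2 averaged 116 ± 7.01 FPKM with OTX and 131 ± 19.99 FPKM with DMSO, and MCM5 averaged 137 ± 10.1 FPKM with OTX and 119.99 ± 22.6 FPKM with DMSO. Within U937 -FA, DMSO column 2 held the highest DMSO values of MCM2 and MCM5. Without that library the differences of MCM2 and MCM5 were -0.91 and -0.97. The adjusted p-values without it were 0.0581 for ORC1, 0.0635 for MCM2, 0.0677 for MCM4 and 0.0658 for MCM5, POLE and FEN1 (limma). Such shifts were not particular to replication genes. Of 24 tested members of the glycolytic list, 11 were lower and 3 higher without folic acid, and 3 lower and 7 higher with it. Of 28 sterol and fatty acid synthesis genes, 4 were called lower and 1 higher in the test of the difference.

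**Figure D4:**
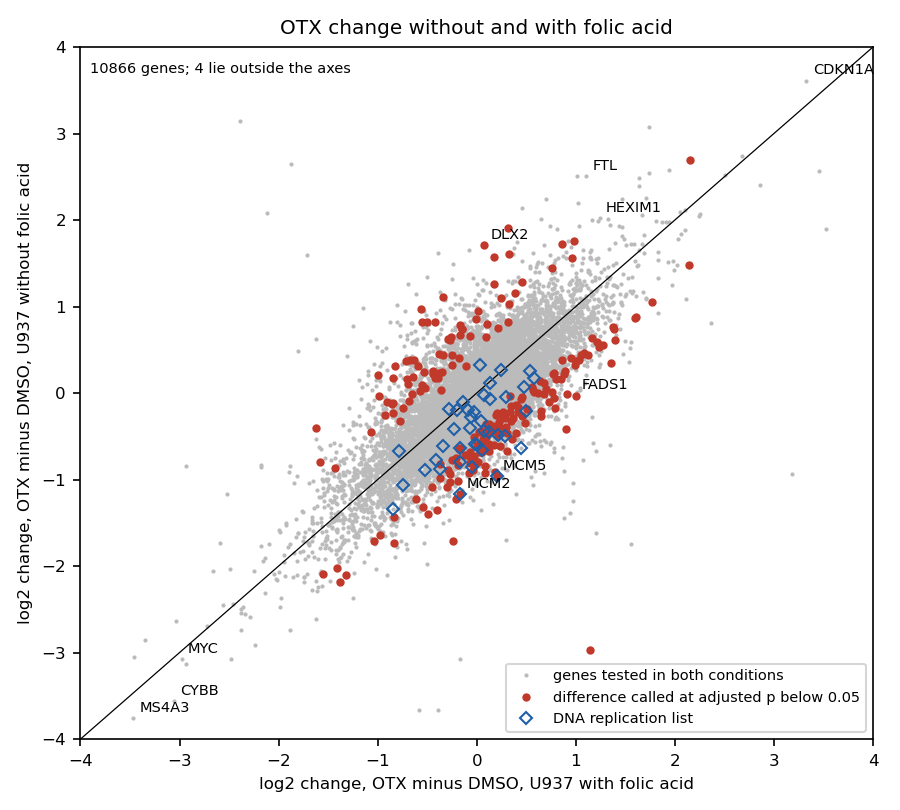
Log2 change by OTX in U937 +FA (horizontal) against U937 -FA (vertical) for genes tested in both, with the line of equal change. Red points passed the test of the difference at an adjusted p of 0.05, and blue diamonds are the DNA replication list. MYC (-3.08 without and -2.98 with folic acid) lies near the line, MCM2 and MCM5 below it.

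Other genes with a called difference and the highest values were DLX2, HIF1A-AS2, C6orf203, SELM, SNRNP27, NDUFC2, NDUFB5 and RPF2, at log2 differences from 1.23 to 1.63. DLX2, a homeobox factor, had 6.797, 8.28 and 5.69 FPKM with OTX, against 1.502, 1.897 and 0.909 FPKM with DMSO, and in U937 +FA it averaged 1.93 ± 0.605 FPKM with OTX and 1.805 ± 0.689 FPKM with DMSO. In all 8 genes DMSO column 2 held the lowest value of the U937 -FA DMSO group, and without it none of the 8 differences passed (adjusted p = 0.0639 for DLX2, limma). The loss was not particular to that library. DLX2 also failed without OTX column 1 and without DMSO column 0 (adjusted p = 0.146 and 0.107, limma). The lowest differences were those of SLMO2-ATP5E, PCNA-AS1, MCM5, BLVRB, FADS1, PRR19, MCM2 and ACTA2. BLVRB, biliverdin reductase B, had 161, 142 and 154 FPKM with OTX, against 276, 247 and 348 FPKM with DMSO, and in U937 +FA it averaged 195 ± 17.03 FPKM with OTX and 172 ± 27.9 FPKM with DMSO. Its call was also lost without DMSO column 2 and without OTX column 1 (adjusted p = 0.0567 and 0.146, limma). PCNA-AS1 overlaps PCNA on the other strand, and the strand setting of the authors' counting is not given in the sources used here.

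Of the 16 folate genes tested, limma called 0 differences between conditions, with 5 at an unadjusted p below 0.05. Among all genes 2.01% were called and 33.9% had such a p, so the count says nothing particular about folate genes. MTHFD1L had log2 changes of -2.32 in U937 -FA and -2.13 in U937 +FA, a difference of -0.18 (SE 0.13, adjusted p = 0.316, limma). TYMS had a difference of -0.97 (SE 0.25, adjusted p = 0.0536, limma), with changes of -0.19 and 0.78. Of 45 ribosome biogenesis factors, limma called 0 differences, with 18 at an unadjusted p below 0.05, also near the shares of all genes. All 45 fell in U937 +FA. RPF2, with a called difference of 1.23, is not on this list.

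Against IMS-M2 -FA, many more genes had a called difference. In an interaction test over 12 libraries, 5051 of 12011 genes (42.1%) had a called difference in OTX change, 2471 higher (20.6%) and 2580 lower (21.5%) in U937, and 991 (8.25%) a difference of 1 or more on the log2 scale. With a pseudocount of 0.1 FPKM the last count was 1587. Of the 1065 genes called at that size in U937 -FA, 241 (22.6%) were also called at it in IMS-M2 -FA. These are 26.7% of the 901 genes called there, which are 8.18% of those tested. In 231 of the 241 the direction was the same.

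MYC fell more in U937. In IMS-M2 -FA it averaged 119 ± 1.95 FPKM with OTX and 183 ± 2.94 FPKM with DMSO (SD, n = 3 each), a log2 change of -0.62, and the difference was -2.46 (SE 0.12, adjusted p = 3.27e-08, limma). Ribosome biogenesis factors followed the same side, 32 of 45 with a called lower difference and none higher. CDKN1A, at 107 ± 9.55 FPKM with OTX and 35.9 ± 1.89 FPKM with DMSO in IMS-M2, had a difference of 2.06 (SE 0.15, adjusted p = 8.92e-07, limma). HEXIM1 changed by 2.02 in U937 -FA and 2.03 in IMS-M2 -FA, a difference of -0.01 with an SE of 0.22 (adjusted p = 0.983, limma). BRD2, TXNIP, SERPINI1 and FTL had called differences of -0.58, -0.45, 0.94 and 1.201.

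The lowest differences belonged mostly to genes that IMS-M2 hardly expressed. MS4A3, CYBB, TGM5, CLTCL1, FCER2 and TBXA2R averaged under 1 FPKM in both IMS-M2 -FA groups. GBP5, an interferon-induced GTPase, was an exception, averaging 35.4 ± 1.25 FPKM with OTX and 7.72 ± 0.674 FPKM with DMSO in IMS-M2 -FA and staying under 2 FPKM in U937 -FA. The highest differences belonged to genes that fell in IMS-M2 and averaged under 1 FPKM in U937 -FA, namely IGLL1, CCL1, ANGPT1, NRXN2, H19, SELP and SLC38A5. Genes of both kinds passed the filter only through the line that expressed them, so their difference mostly restates the change in that line. PRSS57, a serine protease of progenitor granules, moved in opposite directions, with 5.19, 4.46 and 3.06 FPKM with OTX, against 1.17, 1.93 and 0.510 FPKM with DMSO in U937 -FA. In IMS-M2 -FA it averaged 13.9 ± 2.02 FPKM with OTX and 107 ± 13.7 FPKM with DMSO. HOXA genes also differed, 8 of 12 with a called higher difference in U937 -FA and none lower, and mitosis genes, 13 of 36 higher and none lower.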

How the data were processed

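Polyadenylated RNA was sequenced from TruSeq Stranded mRNA libraries, per the labels' protocols. Per the submitters' processing notes, whose roles and settings are not given here, the authors' tools were Cuffdiff 2.2.1, TopHat2 2.1.1 and bcl2fastq 2.17.1.14, with build hg19. The deposited tables hold FPKM values for 23595 genes in 4 tables, 1 for each line and folic acid condition. The unit was inferred from those tools and the values. No read counts were used here, so depth is unknown. Whether the tables were normalized together is not given in the sources used here, so tests compare changes within tables.

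From there, genes averaging at least 1 FPKM in a group were tested on log2(FPKM + 1) with limma 3.58.1 in R 4.3.3 (empirical Bayes with intensity trend). A pseudocount of 1 FPKM understates changes of low genes. Adjusted p-values are Benjamini-Hochberg over all genes tested, with 0.05 as the threshold. Differences between conditions or lines are interaction contrasts over 12 libraries. The fit was tested on simulated data before use.

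Gene lists are described by counts and medians, with no test. Named genes are 9 anchor genes (MYC, HEXIM1, SERPINI1, BRD2, CDKN1A, TXNIP, NEAT1, FTL, CYBB), the 15 highest and 15 lowest called changes without overlap at a group mean of 5 FPKM or more, the 8 highest and 8 lowest of each difference, and up to 6 members per list and direction by smallest p, small RNA symbols left out of the rankings. Other members, such as BCL2, TYMS, MAX, NPM1, ELANE, CEBPA, FBL, PES1 and the MCM genes, were named for their role or range after their values were seen. The genes, lists and comparisons were chosen with earlier results of these data known.

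The labels used here do not state a pairing, and the reported fits were unpaired. Column numbers were read as pairing libraries in the replicate block only. In U937 -FA, deviations of same-numbered OTX and DMSO libraries from their group means had weak correlations of 0.18, 0.19 and 0.33. Differently numbered ones had -0.27 to 0.07. In U937 +FA the same check gave -0.43, 0.35 and -0.18, and in IMS-M2 -FA 0.08, 0.26 and 0.06. Alternatives were another filter or none, a pseudocount of 0.1 FPKM, rescaling, leaving out small RNAs, no intensity trend, a replicate block, a fit on all 12 U937 libraries and leaving out each library. Promoter windows come from RefSeq (GRCh38.p14) and were matched by symbol, with those on the chromosome of RRS1 left out. Loci are those of the deposited tables. Some members of the lists are counted but not reported by name here.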

Additional observations from a re-analysis of the deposited data

Results flagged for a closer look

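The OTX change differed between U937 without and with folic acid, by the interaction test, for these named genes, given as log2 differences (-FA minus +FA). Higher were DLX2 (1.63), HIF1A-AS2 (1.59), C6orf203 (1.53), SELM (1.44), SNRNP27 (1.40), NDUFC2 (1.38), NDUFB5 (1.24), RPF2 (1.23) and NEAT1 (0.54). Lower were SLMO2-ATP5E (-4.11), PCNA-AS1 (-1.32), MCM5 (-1.16), BLVRB (-1.10), FADS1 (-1.03), PRR19 (-1.02), MCM2 (-1.005), ACTA2 (-1.002), ORC1 (-0.71), FEN1 (-0.69), POLE (-0.60) and MCM4 (-0.46). None of them passed with the replicate block, a pairing that the U937 +FA libraries did not bear out throughout. Without DMSO column 2 only FADS1 passed. Other libraries mattered as much: of all genes tested, 1 was called without DMSO column 0 and 2 without OTX column 1.

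Between U937 -FA and IMS-M2 -FA, the same test found higher changes in U937 for PRSS57 (4.14), CDKN1A (2.06), FTL (1.20) and SERPINI1 (0.94), and lower ones for MYC (-2.46), GBP5 (-2.45), BRD2 (-0.58) and TXNIP (-0.45). Other genes passed the filter on low values through 1 line only and averaged under 1 FPKM in both groups of the other, so the difference mostly restates the change in that line. Through IMS-M2 these were IGLL1 (6.09), CCL1 (4.65), ANGPT1 (4.46), NRXN2 (4.05), H19 (4.02), SELP (3.96) and SLC38A5 (3.78). Through U937 they were MS4A3 (-3.62), CYBB (-3.33), TGM5 (-2.82), CLTCL1 (-2.57), FCER2 (-2.56) and TBXA2R (-2.45).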

How the results depend on the processing

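Counts of called genes for OTX against DMSO in U937 -FA stayed within 1.5 times the reported 6092 under every alternative run, from 4518 without OTX column 1 to 6898 without DMSO column 2. Those of 1 or more on the log2 scale stayed within 1.5 times except with a pseudocount of 0.1 FPKM (1602). The replicate block gave 6616 calls there and 5728 for the difference between lines. For that difference the count at 1 or more was 1587 with a pseudocount of 0.1 FPKM, and the other counts stayed within 1.5 times.

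The difference between folic acid conditions was called for 128 genes with no filter, 31 with a pseudocount of 0.1 FPKM, 541 without small RNA symbols, 0 with the replicate block and 1 to 2704 with a library left out, against 225 as reported. At 1 or more on the log2 scale the counts were 7 with no filter, 7 with a pseudocount of 0.1 FPKM, 60 without small RNA symbols, 0 with the block and 0 to 393 with a library left out, against 29. The cause was not tested.

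Uncalled values near 0 changed sign: TXNIP in the folic acid difference (-0.046 to 0.095 with a library left out), HEXIM1 in the line difference (0.0103 rescaled, -0.21 to 0.15 with a library left out), and in U937 -FA CEBPA (-0.23 to 0.12), FADS1 (-0.068 to 0.0112) and MAX (-0.038 to 0.13), each with a library left out. In U937 -FA, the calls of CD4, BUB3, CYBA, PLK1, H2AFZ, RPS20 and RPS27 were lost under at least 1 alternative. MDM2 passed only in the fit on 12 libraries (adjusted p = 0.0397, limma). Without DMSO column 2, the list medians of the BCL2 family and MHC class I turned from positive to -0.02 and -0.06. FPKM without counts set no depth limit for single genes.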
